A study of Mus musculus with 40 samples.

Results

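The TaqMan assay Mm00468869_m1, sold by its vendor for mouse Hif1a, is 1 of 224 assays measured by real-time quantitative PCR in the colonic mucosa of 40 mouse samples. It was selected by its assay ID, with its values across the samples already known, so its level in each group is given as a description without a test. The deposited table lists assays by ID alone and pairs none with a gene. The name Hif1a therefore rests on the vendor's catalogue and was not checked against the table. The samples fall into 4 groups of 10. The control group was germ-free, that is, raised without any microbes. Mice mono-associated with E. coli CEC or with E. coli Nissle, a strain used as a probiotic, had carried that single strain for 21 days. Conventional mice carry an ordinary microbiota, and their labels give no number of days. The labels give no strain, age or sex of the mice. The series' design text speaks of pooling equal RNA amounts from the animals, yet 40 samples are listed. A sample may therefore be 1 mouse or not, and the p-values refer to sample-to-sample spread alone, part of which may be technical. The germ-free samples are numbered 10 to 12, 20 to 22 and 30 to 33. The labels do not say whether numbers mark cages, litters or runs. The permutation tests treat the samples of a group as interchangeable. If neighbouring numbers share such a unit, the p-values may be too small and the counts of passing assays too high.

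Hif1a encodes the oxygen-regulated subunit of hypoxia-inducible factor 1, the transcription factor that switches cells to a low-oxygen programme. When oxygen is present, prolyl hydroxylases mark the protein, the VHL ubiquitin ligase binds it and the proteasome destroys it, so its activity is set mainly at the protein. When oxygen falls, the protein persists, pairs with ARNT and turns on genes of glycolysis, blood vessel growth and, in the gut, of the epithelial barrier. The colonic epithelium lies on a steep oxygen gradient between its blood supply and the nearly oxygen-free lumen, and microbial products such as butyrate, whose oxidation uses up oxygen, are known to raise HIF activity there. The assay measured Hif1a transcript, not the protein or its activity. The suffix m1 marks, in the vendor's naming, a probe that spans an exon junction.

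All 40 wells of the Hif1a assay gave a measured threshold cycle (Ct, the PCR cycle at which fluorescence crosses the threshold, with roughly double the template for each cycle earlier). None was undetermined, and none had been filled in with a group mean. The mean Ct was 19.59 cycles, the 33rd lowest of 213 assays, whose median was 22.49. The assay thus gave an early signal for this panel. The raw Ct of a sample followed the Ct of the whole panel: within groups it correlated with the sample's median Ct with Pearson r = 0.854 and Spearman rho = 0.796 over 40 samples (permutation test, p = 1e-05 each, the smallest that 100000 permutations can give, and adjusted p = 4e-05 each over 4 relations), and r was 0.744 without the 2 samples farthest from the median, CEC replicates 6 and 8. Its slope was 1.07 cycles per cycle. Relative expression, in log2 units, is the median Ct of a sample (taken over the 203 assays with no undetermined well) minus its Hif1a Ct. Pooled over the 4 groups, it had no detectable relation with the sample median (r = -0.101, rho = -0.00131, permutation p = 0.602 and 0.995, adjusted p = 0.632 and 0.995, r = 0.208 without the same 2 samples). The relation was not measured in single groups, so trends of opposite sign could cancel in it. In Nissle samples the highest relative values, in replicates 8, 9 and 10, came with the latest sample medians, 22.79, 22.77 and 22.78 cycles. The highest conventional value, in replicate 7, came with an early sample median of 21.65.

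By mean raw Ct, Hif1a was latest, and so lowest, in germ-free mucosa at 20.13 ± 0.51 cycles, followed by CEC at 19.54 ± 1.08, Nissle at 19.49 ± 0.36 and conventional samples at 19.19 ± 0.44 (SD, n = 10 each). Raw Ct ran from 19.12 to 20.79 with a median of 20.05 in germ-free samples, from 18.53 to 21.47 with a median of 19.06 after CEC, from 18.75 to 20.05 with a median of 19.45 after Nissle, and from 18.62 to 19.81 with a median of 19.28 in conventional samples. CEC replicates 6 and 8 had the latest Ct of all groups, 21.47 and 21.29, and also late sample medians of 23.79 and 24.27.

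Relative to the sample median, Hif1a was lowest in germ-free samples and highest after CEC. Relative expression in germ-free samples ran from 2.01 to 2.80 with a median of 2.27 and averaged 2.33 ± 0.31 log2 units (SD, n = 10). The lowest 3 were replicates 10, 11 and 12, at 2.01, 2.02 and 2.04. After CEC it ran from 2.32 to 3.82 with a median of 3.17 and averaged 3.18 ± 0.40 (SD, n = 10). Replicate 4 was the highest of all 40 samples, and replicate 6, at 2.32, lay 0.86 below the CEC mean and was the only CEC sample inside the germ-free range. The next CEC value was 2.98.

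After Nissle it ran from 2.14 to 3.39 with a median of 2.72 and averaged 2.81 ± 0.43 (SD, n = 10). Nissle replicates 8, 9 and 10 stood together at 3.31, 3.39 and 3.35, above every conventional sample, and the other 7 lay between 2.14 and 2.92. Their raw Ct, 19.48, 19.38 and 19.42 in replicates 8, 9 and 10, was close to the Nissle median of 19.45. What set these replicates apart was late sample medians of 22.79, 22.77 and 22.78 cycles, the latest of the group. Conventional samples were the most uniform, from 2.36 to 3.03 with a median of 2.80 and a mean of 2.77 ± 0.21 (SD, n = 10). Their highest values were those of replicates 7, 8, 9 and 10, at 3.03, 2.97, 2.83 and 2.94. Of the 30 colonised samples, 19 lay above the highest germ-free sample and 11 did not. In bulk tissue, a change in the mix of cells and a change in the transcript per cell cannot be told apart.

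**Figure D1:**
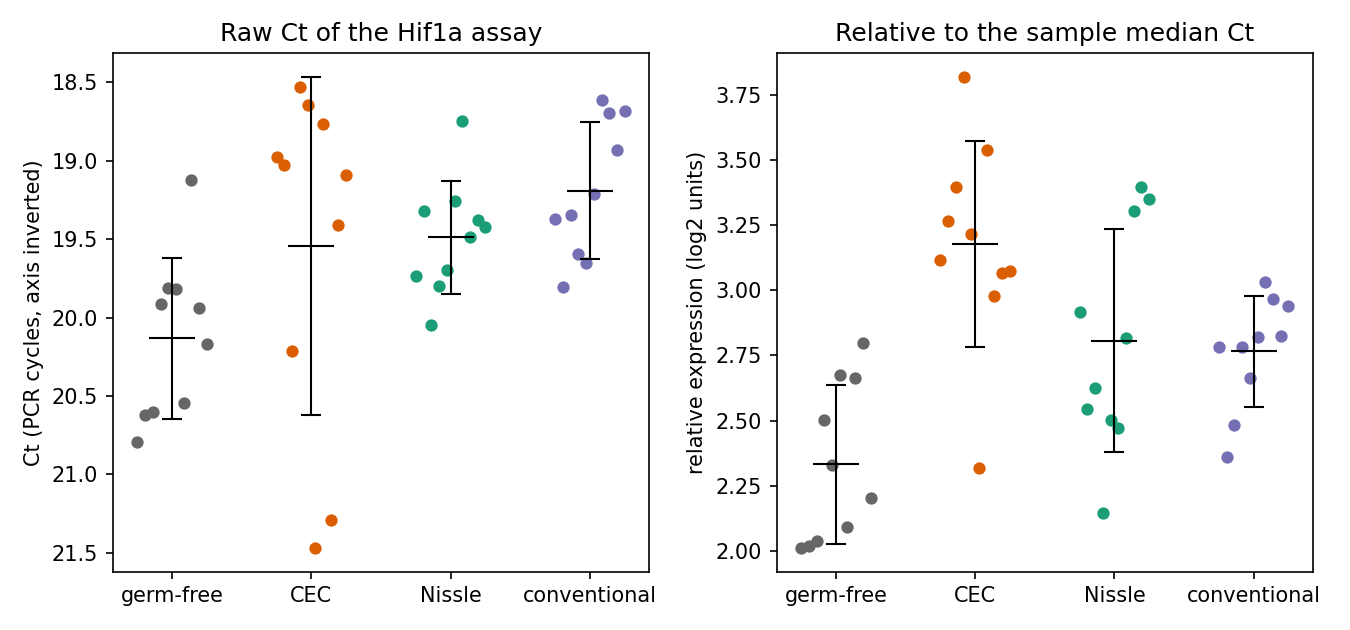
Hif1a in each sample as raw Ct in cycles (left, axis inverted so that more template is higher) and as relative expression in log2 units (right), with points for samples and bars for the group mean ± SD of 10 samples. Germ-free samples average 2.33 on the right and CEC samples 3.18, with CEC replicate 6 alone at 2.32, while the 3 highest Nissle samples lie at 3.31 to 3.39.

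The CEC mean exceeded the germ-free mean by 0.85 log2 units, a 1.80-fold level, with a standard error of 0.16 from a limma fit over the 4 groups and 213 assays. A CEC sample was higher than a germ-free sample in 95 of 100 pairs, and 9 of the 10 CEC samples lay above every germ-free sample. Of the 213 assays, Hif1a had the 29th largest absolute difference in this comparison and, divided by its standard error, the 7th largest. The median absolute difference of all assays was 0.34.

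Nissle and conventional samples lay above germ-free samples by less. For Nissle the difference was 0.47 with a standard error of 0.16, 1.39-fold, with the Nissle sample higher in 81 of 100 pairs. For conventional samples it was 0.43 with the same standard error, 1.35-fold, with the conventional sample higher in 88 of 100 pairs. All 10 conventional samples and 9 of 10 Nissle samples lay above the germ-free mean, and 5 of each lay above the highest germ-free sample. These 3 comparisons share the germ-free samples. All 3 differences exceeded the larger SD of the groups compared. By absolute difference Hif1a ranked 63rd of the 213 assays for Nissle and 86th for conventional samples, and by difference over standard error 20th and 39th.

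In order of level the groups ran CEC, Nissle, conventional, germ-free. The first neighbours, CEC and Nissle, differed by 0.37, less than the Nissle SD of 0.43, and CEC was higher in 73 of 100 pairs. Nissle and conventional differed by 0.04, with Nissle higher in 49 of 100 pairs, so their order has no support from the samples. Conventional and germ-free differed by 0.43, beyond both SDs. CEC exceeded conventional samples, its more distant neighbour, by 0.41, just past the CEC SD of 0.40, and in 89 of 100 pairs. This was the median absolute difference of the 213 assays in that comparison, in which Hif1a ranked 107th.

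Germ-free had the lowest mean under each of 5 normalizers, but the order of the colonised group means turned with the normalizer. The sample median Ct differed between groups, from 21.96 ± 0.29 cycles in conventional and 22.30 ± 0.49 in Nissle to 22.47 ± 0.31 in germ-free and 22.72 ± 0.84 in CEC samples (SD, n = 10 each). When the mean Ct of the 10 most stable assays was the normalizer, differences from germ-free moved by -0.02 for CEC, -0.16 for Nissle and 0.26 for conventional, for every assay alike. Hif1a was then 0.82, 0.32 and 0.69 above germ-free in CEC, Nissle and conventional samples. Without normalization these differences were 0.59, 0.64 and 0.94, and conventional samples had the highest mean. This order holds for means only. By median raw Ct, CEC samples were the earliest at 19.06 cycles, against 19.28 in conventional and 19.45 in Nissle samples. The late CEC replicates 6 and 8, at 21.47 and 21.29, enter the CEC mean. How far amount of template or a shift of the whole panel enters these levels was not tested.

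**Figure D2:**
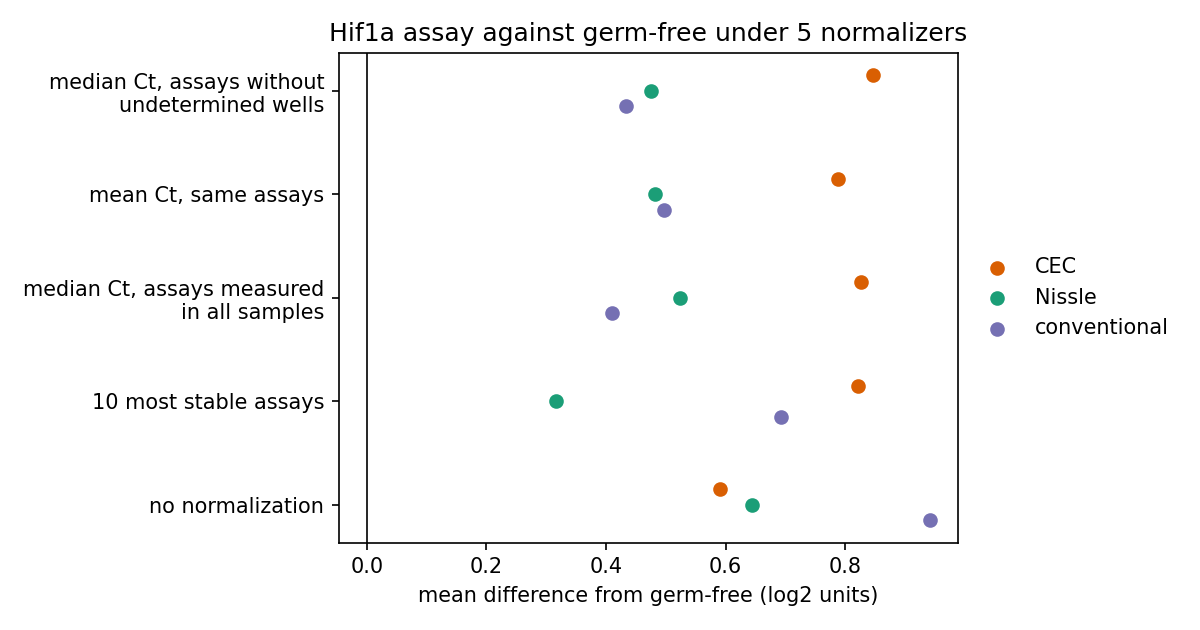
Mean Hif1a difference from germ-free in log2 units (horizontal axis) for CEC, Nissle and conventional samples, one row per normalizer. All 15 points lie to the right of 0, and CEC leads except without normalization, where conventional samples reach 0.94.

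Hif1a varied little from sample to sample. Its SD within groups was 0.35 log2 units, the 17th smallest of 213 assays, whose median was 0.60. The differences between groups made up 45.5% of its variance, the 17th largest share, against a median of 19.0%. Of the 212 other assays, 38 had, like Hif1a, a higher mean in all 3 colonised groups than in germ-free samples, and 44 a lower mean in all 3.

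Co-variation with the other assays was measured after each value was centred on its group mean, so that the differences between groups do not enter. Both values of a pair share the sample's normalizer. Of 212 assays, 35 passed an adjusted p of 0.05 (permutation test within groups, Benjamini-Hochberg), which is 16.5% of those tested, while 58 had an unadjusted p under 0.05. Positive relations were 25 (11.8%), with r from 0.451 to 0.714, and negative ones 10 (4.72%), with r from -0.621 to -0.418. The median r of all 212 assays was 0.0862.

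**Figure D3:**
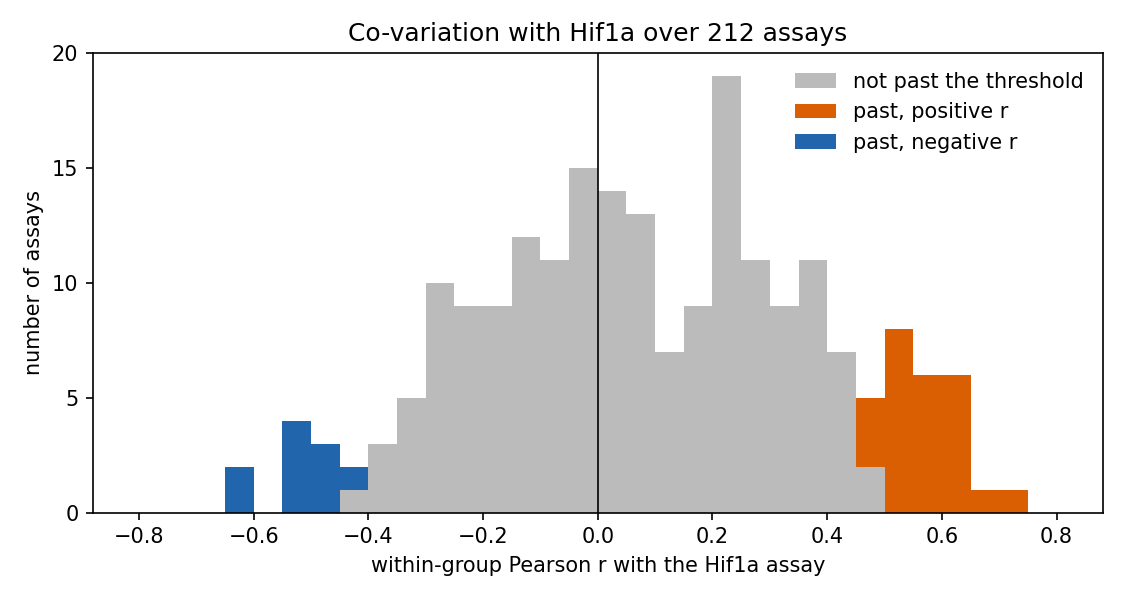
Number of assays (vertical axis) by their within-group Pearson r with Hif1a (horizontal axis, bins of 0.05) over 212 assays and 40 samples. The 25 assays past the threshold with a positive r lie at 0.451 and above, and the 10 with a negative r at -0.418 and below.

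The count rested on few samples. CEC replicate 6 had the farthest Hif1a value from its group mean. It also had 15 undetermined assays, together with CEC replicate 8 the most of all 40 samples. Without CEC replicate 6, 13 assays passed, 12 positive and 1 negative, of which 10 were among the 35. Without this sample and the second farthest, Nissle replicate 4, which lay 0.66 below its group mean, 4 passed, all positive, and 3 of them were among the 35. The normalizer changed the balance: with the 10 most stable assays 92 passed, 87 positive and 5 negative, and without normalization 160 passed, 159 positive and 1 negative.

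Mm01337566_m1 had the relation closest to that of Hif1a within groups. Its relative expression ran from -2.36 to 2.74 with a median of 2.35 after CEC, and from 1.11 to 3.36 with a median of 2.42 after Nissle. It ran from 1.40 to 2.32 with a median of 1.78 in germ-free and from 0.76 to 1.83 with a median of 1.20 in conventional samples. Its r with Hif1a was 0.714 and its rho 0.686 (permutation test, p = 1e-05 each, adjusted p = 0.00106 each, n = 40), and r was 0.645 without the 2 farthest samples (permutation test, adjusted p = 0.012). Taken by group, r was 0.943 after Nissle, against 0.828 after CEC, 0.368 in germ-free and 0.376 in conventional samples. In the 9 CEC samples other than replicate 6 it was 0.553. These values per group are a description, and their differences between groups were not tested. The means did not follow Hif1a: the conventional mean lay 0.55 below the germ-free mean, and over all 40 samples, with group differences kept, r was 0.496 and rho 0.559.

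Mm04204611_g1 came second. The suffix g1 marks an assay that, by the vendor's naming, may also detect genomic DNA. It ran from 4.21 to 4.97 with a median of 4.60 in germ-free, from 1.45 to 5.17 with a median of 4.61 after CEC, from 4.25 to 5.27 with a median of 4.70 after Nissle and from 3.19 to 4.65 with a median of 3.91 in conventional samples. The lowest of these was CEC replicate 6, and the other CEC samples lay at 4.04 or above. Its r with Hif1a was 0.683 and its rho 0.689 (permutation test, p = 1e-05 each, adjusted p = 0.00106 each, n = 40), and r was 0.598 without the 2 farthest samples (permutation test, adjusted p = 0.0106). By group, r was 0.876 in germ-free, 0.824 after CEC, 0.932 after Nissle and 0.161 in conventional samples. It was 0.482 after CEC without replicate 6. With group differences kept, r fell to 0.371 and rho to 0.418 over all samples. The 2 assays also varied together, with r = 0.843 within groups.

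Mm01337566_m1 and Mm04204611_g1 were 2 of the 4 assays that passed without both farthest samples. The other two, named here after their values were seen, were Mm01731394_gH, with r = 0.593 in those 38 samples and 0.502 in all 40, and Mm04213618_gH, with r = 0.615 in the 38 and 0.220 in all 40 (permutation test, adjusted p = 0.0143 and 0.0106 in the 38 samples, 0.0192 and 0.407 in all 40).

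**Figure D4:**
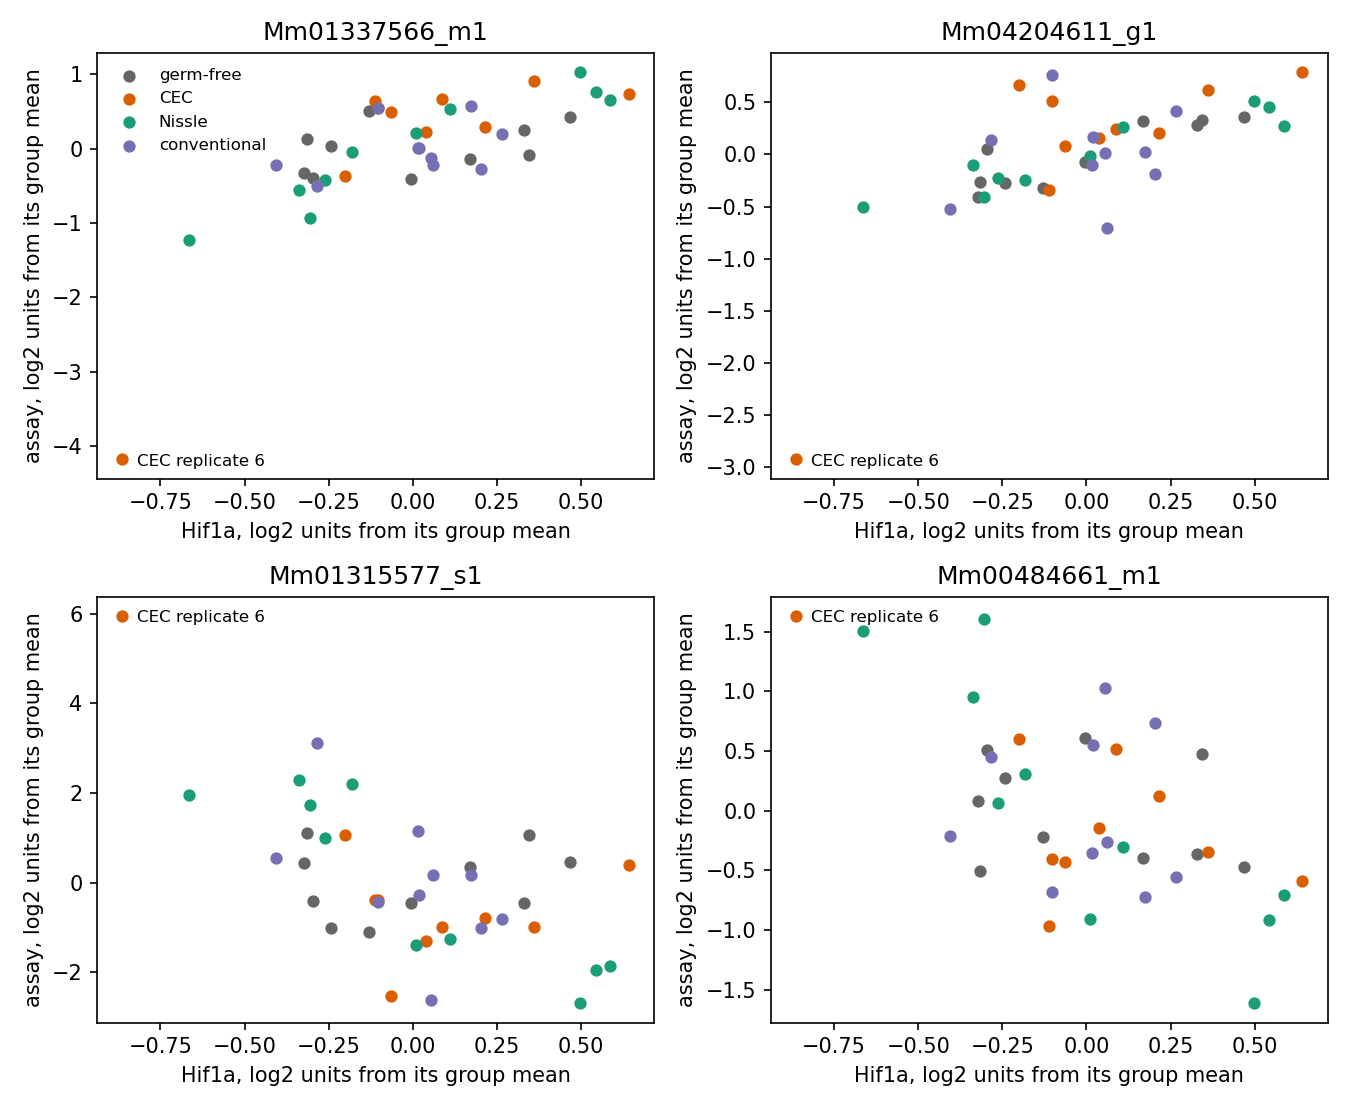
Relative expression of Hif1a (horizontal axis) against that of 4 assays (vertical axes), each in log2 units from its group mean, with 1 point per sample coloured by group. Mm01337566_m1 and Mm04204611_g1 rise with Hif1a, Mm01315577_s1 and Mm00484661_m1 fall, and CEC replicate 6, 0.86 below its group mean in Hif1a, lies at the end of each panel.

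The most negative relation was that of Mm01315577_s1, an assay whose suffix s1 marks primers and probe inside a single exon. Its values spread widely, from -3.08 to 5.41 with a median of -1.14 after CEC, from -4.64 to 0.35 with a median of -2.08 after Nissle, from -1.29 to 0.93 with a median of -0.21 in germ-free and from -2.76 to 2.99 with a median of -0.20 in conventional samples. It was high where Hif1a was low in the Nissle samples. Its r was -0.621 and its rho -0.547 (permutation test, p = 0.00028 and 0.00094, adjusted p = 0.00657 and 0.0199, n = 40). By group, r was -0.897 after Nissle, -0.673 after CEC, -0.551 in conventional and 0.235 in germ-free samples. CEC replicate 6 held the highest value, 5.41. Among the other 9 CEC samples r was 0.0839, over all other samples it was -0.498 (permutation test, adjusted p = 0.053), and without the 2 farthest samples it was -0.451 (permutation test, adjusted p = 0.144). The call thus needed that sample. With the 10 most stable assays r was -0.109 (permutation test, adjusted p = 0.642).

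Mm00484661_m1 followed, with r = -0.606 and rho = -0.501 (permutation test, p = 0.00031 and 0.0024, adjusted p = 0.00657 and 0.0242, n = 40). It ran from 0.29 to 3.52 with a median of 1.78 after Nissle, and from 1.41 to 4.003 with a median of 2.13 after CEC. Germ-free values ran from 2.43 to 3.54 with a median of 2.86. Conventional values ran from 2.51 to 4.26 with a median of 2.99975. By group, r was -0.866 after Nissle, -0.668 after CEC (-0.200 without replicate 6), -0.249 in germ-free and -0.0424 in conventional samples. Its r was -0.530 without CEC replicate 6 (permutation test, adjusted p = 0.0519) and -0.454 without the 2 farthest samples (permutation test, adjusted p = 0.144). Its sign turned to 0.205 when the 10 most stable assays were the normalizer and to 0.151 without normalization. Neither of these passed (permutation test, adjusted p = 0.320 and 0.310), so this negative relation depends on the normalizer.

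Over all 40 samples, with the differences between groups kept, Mm00477788_m1 and Mm01344436_g1 were the most like Hif1a. Mm00477788_m1 had r = 0.671 and rho = 0.677 over 39 samples. It ran from -3.72 to -2.23 with a median of -3.07 in germ-free, from -2.62 to -1.52 with a median of -2.18 in 9 CEC, from -4.29 to -1.55 with a median of -2.55 in Nissle and from -3.75 to -2.84 with a median of -3.31 in conventional samples. Like Hif1a it averaged higher after CEC than in germ-free samples, by 0.86, and after Nissle by 0.41, but its conventional mean differed from germ-free by -0.32. Within groups its r was 0.648 and its rho 0.527 (permutation test, p = 0.00012 and 0.00232, adjusted p = 0.00636 and 0.0242), and r was 0.571 without the 2 farthest samples (permutation test, adjusted p = 0.0505). Taken by group, r was 0.877 after Nissle, 0.724 in germ-free and 0.646 in conventional samples, but -0.346 in the 9 CEC samples. Its CEC replicate 6 value had been filled in before deposit and was left out. With filled-in values as deposited the within-group r was 0.405 (permutation test, adjusted p = 0.134).

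Mm01344436_g1 had r = 0.587 and rho = 0.623 over all 40 samples. It ran from 0.61 to 1.72 with a median of 1.24 in germ-free, from 0.52 to 1.80 with a median of 1.58 after CEC, from 0.90 to 2.91 with a median of 1.54 after Nissle and from 0.88 to 1.85 with a median of 1.17 in conventional samples. Its groups overlapped broadly, and its means above germ-free were 0.27 for CEC, 0.36 for Nissle and 0.02 for conventional samples. Within groups r was 0.622 and rho 0.571 (permutation test, p = 0.00029 and 0.00051, adjusted p = 0.00657 and 0.0135). In single groups r was 0.790 after Nissle, 0.760 after CEC (0.225 without replicate 6), 0.452 in conventional and 0.155 in germ-free samples. Over all groups it was 0.544 without CEC replicate 6 (permutation test, adjusted p = 0.0466) and 0.491 without the 2 farthest samples (permutation test, adjusted p = 0.129).

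Mm00445845_m1 and Mm00484138_m1 were the least like Hif1a over all samples. Mm00445845_m1 had r = -0.643 and rho = -0.601. Its means differed from germ-free by -4.78 after CEC and -4.31 after Nissle, at -2.47 ± 1.30 and -2.004 ± 2.996 against 2.31 ± 1.36 (SD, n = 10 each), and at 2.68 ± 1.52 in conventional samples. Within groups its r was -0.550 and its rho -0.517 (permutation test, p = 0.00104 and 0.00194, adjusted p = 0.0128 and 0.0238). By group, r was -0.761 after Nissle, -0.511 after CEC (-0.218 without replicate 6), -0.399 in conventional and -0.231 in germ-free samples. Its call ended with the 10 most stable assays, at r = -0.268, and without normalization, at r = -0.0311 (permutation test, adjusted p = 0.153 and 0.847). Mm00484138_m1 had r = -0.613 and rho = -0.576 over all samples. It averaged 0.17 ± 1.23 in germ-free, -1.56 ± 1.90 after CEC, -2.21 ± 0.89 after Nissle and -1.76 ± 0.77 in conventional samples (SD, n = 10 each), the opposite order of germ-free and colonised samples from that of Hif1a. Within groups its r was -0.545 and its rho -0.390 (permutation test, p = 0.00137 and 0.0158, adjusted p = 0.0153 and 0.0931), so it did not pass by rank. In single groups r was -0.878 after CEC (-0.679 without replicate 6), -0.460 after Nissle, -0.292 in germ-free and -0.0950 in conventional samples. Its call too ended with the 10 most stable assays, at r = -0.320, and without normalization, at r = -0.337 (permutation test, adjusted p = 0.143 and 0.105). Without the 2 farthest samples r was -0.438 for Mm00445845_m1 and -0.303 for Mm00484138_m1 (permutation test, adjusted p = 0.145 and 0.330), and without CEC replicate 6 that of Mm00484138_m1 was -0.374 (permutation test, adjusted p = 0.140).

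**Figure D5:**
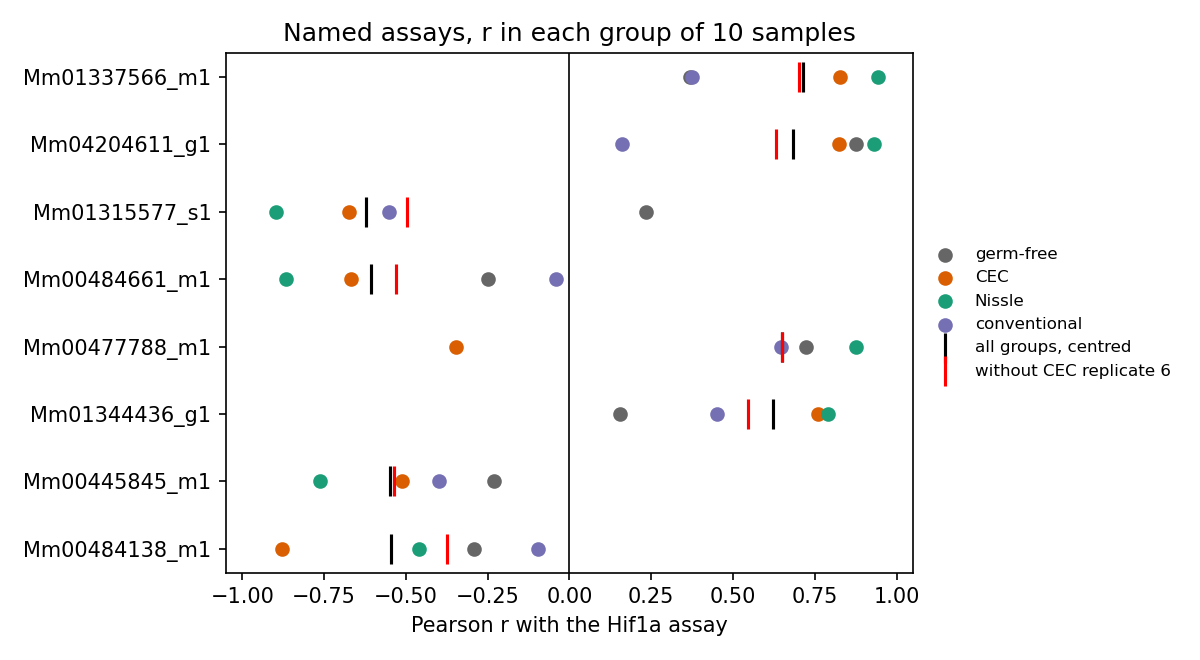
Pearson r with Hif1a (horizontal axis) for 8 assays, with a point for each group of 10 samples (9 CEC samples for Mm00477788_m1) and vertical marks for the centred samples of all groups with and without CEC replicate 6. Nissle points lie farthest from 0 for 7 of the 8 assays, while CEC leads for Mm00484138_m1. Both values of a pair share the sample's normalizer, and differences in r between groups were not tested.

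Hif1a was not an unusually connected assay in the panel. Among the 153 assays measured in every sample it had 25 partners with an absolute within-group r of at least 0.5, against a median of 32 and a maximum of 72, and 89 assays had more. Its positive partners also varied with one another, with a median r of 0.479 over the pairs of 22 such assays, against 0.0599 over all pairs of the 153, and its positive and negative partners varied in opposite directions, with a median r of -0.426. These assays had been chosen for sharing a partner, and CEC replicate 6 enters all of these values. Of the 25 positive partners, 9 had a higher mean in all 3 colonised groups than in germ-free samples and 2 a lower one in all 3, and of the 10 negative ones none had a higher and 5 a lower mean in all 3. Over all 212 assays these shares were 17.9% higher and 20.8% lower.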

How the data were processed

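Total RNA (mirVana kit) was assayed on custom TaqMan OpenArray cards, which hold many tiny PCR wells, per the labels' protocols. Per the file headers the deposited values are raw Ct and the table is a truncated example. For the threshold setting and filters, the sources used here give nothing. A Ct of 40, found in 405 of 8960 wells (21 assays), was read as undetermined. A further 156 values, in 51 assays, were taken as filled in before deposit, since 153 matched the mean of their group's remaining values within 2e-06 cycles and 3 the mean of all but 1 of those. Both kinds were left missing, while filled-in values stayed in the sample median.

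Relative expression, in log2 units, was the sample median Ct over 203 assays without undetermined wells minus the assay Ct, and assumes a doubling per cycle. The 213 assays with at least 5 measured samples in each group, Hif1a among them, entered the fits. Within-group Pearson r was tested two-sided with 100000 permutations of Hif1a within groups, adjusted by Benjamini-Hochberg over 212 assays, at a threshold of 0.05. Spearman rho used ranks of the centred values. Differences between groups and their standard errors came from limma 3.58.1 in R 4.3.3 (lmFit and eBayes, 1 fit over 4 groups), without p-values for Hif1a. Plots used matplotlib 3.10.9. The steps were tested on simulated data: over 212 assays and 20 sets, 70.0% of relations with r = 0.5 and 98.75% of those with r = 0.7 were recovered, and 2.46% of calls were false. Apart from the set relations with Hif1a, the simulated assays were independent, with normal noise and no outlying sample. The measured assays vary together and hold outlying samples, so these rates do not carry over to the 35 calls. The number of samples, 10 per group, limits the precision.

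The assay and the lists were chosen with earlier results of these data known. Named are the 2 highest and 2 lowest assays by within-group r and by r over all samples, at most 2 each way because the IDs carry no gene names. For that reason the hypoxia and cell type gene lists could not be matched.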

Additional observations from a re-analysis of the deposited data

Results flagged for a closer look

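In groups of 10 samples, the highest or lowest sample was compared with its nearest neighbour, and a gap above 0.466 of the group's range was marked. Of 36 groups of values (Hif1a and the 8 named assays in 4 groups), 7 were marked. Mm00477788_m1 had 9 measured samples in CEC, while the limit of 0.466 is that for 10. Chance marks about 1 in 20 independent groups with normal spread. The named assays were chosen by their correlation with Hif1a, which favours outlying values in CEC replicate 6, so that rate is no yardstick here. Hif1a itself was not among them: its widest gap, below CEC replicate 6, was 0.44 of the range. CEC replicate 6 was marked in 5 assays. Mm01337566_m1 stood there at -2.36, with the next CEC sample at 1.46. Mm04204611_g1 stood at 1.45, with the next at 4.04. Mm01344436_g1 stood at 0.52, with the next at 1.26. Mm01315577_s1 stood at 5.41 above a next value of 0.52, and Mm00484138_m1 at 3.36 above -0.48. Mm00445845_m1 was marked in germ-free replicate 20, at -0.98 below 1.67, and in conventional replicate 7, at -1.06 below 1.58. The correlations of these assays with Hif1a are given in the report with and without CEC replicate 6 or the 2 farthest samples. Neither setting leaves out the samples marked for Mm00445845_m1. When each of the 40 samples was left out in turn, its within-group r stayed between -0.588 and -0.471 (permutation test, adjusted p up to 0.0484). Both marked samples were not left out together.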

How the results depend on the processing

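Of the differences between groups and the count of correlated assays, 204 alternative values stayed close to those reported and 10 did not. The reported count of 35 correlated assays became 92 with the 10 most stable assays, 160 without normalization and 4 without the 2 farthest samples, and ranged from 13 (without CEC replicate 6) to 36 when each of the 40 samples was left out in turn. With the replicate number as a block (CEC, Nissle and conventional, which share numbers), 7 assays passed, and 23 passed in the same 30 samples with no replicate block, a setting chosen after seeing the data. The labels do not say that numbers pair samples, and same-numbered samples deviated together (r over 0.1) in 1, 7 and 3 of 10 pairs for CEC with Nissle, CEC with conventional and Nissle with conventional. In the same order, the median r was -0.0594, 0.201 and -0.0312, and the own number was the best match in 1, 4 and 1 of 10. Whether CEC and conventional samples share a unit by number was not tested. With the block, Mm04204611_g1, Mm01344436_g1, Mm00484661_m1 and Mm00484138_m1 did not pass (permutation test, adjusted p = 0.0638, 0.0638, 0.156 and 0.113). Without normalization the Hif1a difference was 0.94 for conventional minus germ-free, -0.0537 for CEC minus Nissle and -0.35 for CEC minus conventional, and with the 10 most stable assays it was -0.38 for Nissle minus conventional. Leaving out 1 sample moved no Hif1a difference by more than its within-group SD. The correlation of Mm00484661_m1 turned to 0.205 with the 10 most stable assays and 0.151 without normalization. The cause of these changes was not tested.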
